A study of Mus musculus with 2 samples.

Results

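The MHC class II genes H2-Aa, H2-Ab1, H2-Eb1, H2-DMa, H2-DMb1 and H2-DMb2, the invariant chain gene Cd74 and the transactivator gene Ciita were followed through single-cell RNA-seq of myeloid cells from mouse colorectal polyps. These 8 of the 32285 genes counted were listed by name for their role, with earlier results of these data known. Each had UMIs (unique molecular identifiers, 1 per captured transcript) in both libraries. The study asked whether loss of Dectin-1, a receptor for β-glucans encoded by Clec7a, changes the cells that infiltrate intestinal tumors. C57BL6/J mice, either WT or Clec7a-/-, received the carcinogen azoxymethane (AOM) followed by 3 cycles of 1% dextran sodium sulfate (DSS) in both groups. They were sampled at 16 weeks after AOM, at 26 weeks of age, and flow cytometry was used to sort polyp cells positive for CD11b and CD11c. Each library is a pool, made from 5 mice for WT and from 4 for Clec7a-/-, so no test between genotypes was possible and every difference is one between 2 libraries. Clec7a itself was not analysed here, so the genotype labels were not checked against it.

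MHC class II molecules present peptides taken up from outside the cell to CD4+ T cells. H2-Aa and H2-Ab1 encode the α and β chains of I-A, and H2-Eb1 encodes the β chain of I-E, which C57BL/6 mice do not display because they make no I-E α chain. Cd74 holds newly made chains until they reach the endosome, where the H2-DM heterodimer, made of the H2-DMa product and that of H2-DMb1 or H2-DMb2, exchanges the Cd74 remnant for a peptide. Ciita is the coactivator without which most of these genes are scarcely transcribed, and it acts through a factor complex assembled on short X and Y boxes before their start sites. Dendritic cells (DCs), macrophages and B cells transcribe the genes, whereas mouse neutrophils and T cells are not known for doing so.

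Of the genes, 6 lie in the MHC on chromosome 17 and Ciita lies on chromosome 16. In the GRCm38 build with GENCODE M21, H2-Aa (ENSMUSG00000036594) occupies chr17:34282744-34287823 on the minus strand. H2-Ab1 (ENSMUSG00000073421) occupies chr17:34257689-34269419 and H2-Eb1 (ENSMUSG00000060586) chr17:34305867-34316674, both on the plus strand. The H2-DM genes follow each other on the plus strand, with H2-DMa (ENSMUSG00000037649) at chr17:34119541-34139101, H2-DMb2 (ENSMUSG00000037548) at chr17:34143307-34151555 and H2-DMb1 (ENSMUSG00000079547) at chr17:34153072-34160230. Ciita (ENSMUSG00000022504) occupies chr16:10480059-10528418 on the plus strand, and the Cd74 identifier is ENSMUSG00000024610.

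The sequences before the start sites are shown because the genes are known for sharing these boxes. RefSeq sequences of GRCm38.p6 were matched for 5 of the 8 genes, and each was read over the 250 bases before the start. Capitals mark a Y box (TGATTGG), a cyclic AMP response element (TGACGTCA) or a 12-base run shared at the X box, with any base allowed at the fourth position. They were read from these same sequences and then searched on both strands. The H2-Aa stretch is chr17:34287824-34288073 on the minus strand, the H2-Eb1 stretch chr17:34305617-34305866 on the plus strand, and the H2-DMb2 stretch chr17:34144999-34145235 on the plus strand, cut where an annotated exon begins.
H2-Aa: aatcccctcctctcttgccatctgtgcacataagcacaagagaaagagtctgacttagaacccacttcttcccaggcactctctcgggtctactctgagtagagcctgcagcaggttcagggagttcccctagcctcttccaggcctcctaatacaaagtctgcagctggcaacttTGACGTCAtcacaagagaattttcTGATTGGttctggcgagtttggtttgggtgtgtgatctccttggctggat
H2-Eb1: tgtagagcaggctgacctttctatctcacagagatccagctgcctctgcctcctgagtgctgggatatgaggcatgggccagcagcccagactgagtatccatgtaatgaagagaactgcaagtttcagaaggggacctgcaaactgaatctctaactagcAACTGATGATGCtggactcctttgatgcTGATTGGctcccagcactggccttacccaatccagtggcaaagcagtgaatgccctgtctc
H2-DMb2: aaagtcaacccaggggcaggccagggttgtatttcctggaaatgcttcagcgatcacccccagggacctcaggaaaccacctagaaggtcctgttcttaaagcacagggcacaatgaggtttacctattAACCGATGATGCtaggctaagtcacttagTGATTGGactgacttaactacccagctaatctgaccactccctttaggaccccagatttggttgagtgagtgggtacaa

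The X run is shown alone for the 3 genes that held it, in 30 bases each, at chr17:34305769-34305798 for H2-Eb1, chr17:34153090-34153119 for H2-DMb1 and chr17:34145119-34145148 for H2-DMb2.
H2-Eb1: ctaactagcAACTGATGATGCtggactcct
H2-DMb1: ttacctagtAACTGATGATGCtaggctgat
H2-DMb2: ttacctattAACCGATGATGCtaggctaag
The run began at position -89 in H2-Eb1, -92 in H2-DMb1 and -121 in H2-DMb2, and the Y box began 28, 29 and 29 bases after it. These positions count from the RefSeq starts. GENCODE M21 places the H2-DMb1 and H2-DMb2 runs inside the annotated genes, and 119 of the 250 H2-DMb1 bases, those of the run included, in exons. The run was found in 4 of 32851 promoters of the same length (0.0122%), the other being Gm36553. H2-Aa lacked these letters and held the cyclic AMP response element at -74 and the Y box at -50. Only this run was searched for, so its absence from H2-Aa was not read as the lack of an X box. The Y box alone was found in 7.23% of promoters and the cyclic AMP response element in 1.55%. None of the 3 motifs was in the windows before either RefSeq H2-DMa start, at chr17:34122582-34122831 and chr17:34125268-34125517. Both windows lie inside the H2-DMa gene as GENCODE M21 places it, and no other H2-DMa start was read. A lack of these boxes in H2-DMa is therefore not read from them. The motifs did not overlap each other where they were found. Over the 250 bases before the start, H2-DMb1 and H2-DMb2 had 59.5% of aligned columns identical. Over the last 500 transcript bases, where 3′ reads fall, they had 60.4% of aligned columns identical. Of the 441 stretches of 60 bases there in H2-DMb1, 82 were found in H2-DMb2 transcripts, and 0 of 441 the other way. The split of reads between H2-DMb1 and H2-DMb2 is therefore uncertain to that extent.

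The libraries held 3467 WT and 3080 Clec7a-/- barcodes, of which 2696 and 1999 passed the limits of the study on detected genes and mitochondrial UMIs. The cells kept had median totals of 3412.5 and 2671 UMIs, and 17 barcodes, 6 of them among the cells kept, occurred in both libraries. Cells were clustered on features that excluded the 8 genes, and the 15 clusters were named from marker lists, as in type 1 DC-like for Xcr1 and Clec9a, mature DC-like for Fscn1, Ccl22 and Ccr7, and transitional-like for markers between monocytes and macrophages. The macrophage-like class joined a cluster with Mmp13 among its leading genes (308 WT and 190 Clec7a-/- cells) and one low in it (213 and 104). The mature DC-like class joined an Il12b-poor cluster (220 and 287 cells), which also carried type 2 DC markers, and an Il12b-rich cluster (52 and 114). Most neutrophil-like cells were Ngp-rich in the WT library (496 of 676) and Ngp-poor in the Clec7a-/- library (323 of 404). The Ngp-poor cluster was shallow, with medians of 1147.5 and 916 UMIs and no neutrophil marker among its 10 leading genes, so its name is less certain. A cluster of 357 and 89 cells with neutrophil and monocyte markers stayed unnamed. T-cell-like cells were present despite the sort (68 and 122), with Cd3d at 413 and 479 CPM (UMIs of a gene scaled to a total of 1e6 UMIs over the same cells) against 0.578 and 0.410 in the other cells. The transitional-like cluster had 4 of its 6 markers raised 2-fold or more over the other cells. Summed, the 6 were higher in monocyte-like cells (11099.5 and 10833 CPM) than in transitional-like cells (7585 and 6599), so that name is also less certain.

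Neutrophil-like and T-cell-like cells set the background. The 8 genes summed to 941 CPM (895.8-987 as an exact 95% Poisson interval) in WT and 1673 (1559-1792) in Clec7a-/- neutrophil-like cells. T-cell-like cells held 3161 (2905-3435) and 2223 (2038-2419). These and all later intervals cover counting error only, since 1 library stood for each genotype. After each cell was thinned to 1000 UMIs, which left out shallower cells, 53.1% of 603 WT and 72.9% of 218 Clec7a-/- neutrophil-like cells still held a UMI of any of the 8 genes, as did 33.3% of 57 and 35.9% of 92 T-cell-like cells. Thinning left out 73 and 186 neutrophil-like and 11 and 30 T-cell-like cells. The T-cell-like cells had median totals of 2052 and 1570.5 UMIs and the monocyte-like cells 2887.5 and 2262. A UMI in a single cell was thus within background for the set. The T-cell-like level was carried by few cells, since the thinned cells had a median of 0 UMIs of the 8 genes and a 90th percentile of 2 in both libraries, and 4 cells in each held 10 or more. Their mix in neutrophil-like cells resembled that of the presenting classes, with H2-Aa at 34.0%, H2-Ab1 at 28.9%, H2-Eb1 at 23.6% and Cd74 at 12.8% of the UMIs of the 8 genes over both libraries. Ciita was at 0 in both, and the summed macrophage markers in neutrophil-like cells were at 240 and 285 CPM in the Ngp-rich and 372 and 370 in the Ngp-poor cluster. In T-cell-like cells the summed mature DC markers were at 927 and 1074 CPM, with 3 and 2 of the 8 markers at 0. The summed neutrophil markers were at 5621 and 1910. These sums were not read gene by gene. Without thinning the neutrophil-like shares were 76.6% and 73.8%. The part that free RNA played in these UMIs was not tested.

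Among the named classes, type 1 DC-like cells carried the most class II RNA in both libraries, and macrophage-like cells rich in Mmp13 came next. The 8 genes summed to 53467 CPM (52902-54037) in WT and 48206 (47796-48618) in Clec7a-/- type 1 DC-like cells, 16.9-fold and 21.7-fold the T-cell-like level. In Mmp13-rich macrophage-like cells they summed to 34706 (34452-34961) and 41966 (41581-42354). The order then ran, in WT, through transitional-like cells at 30611, Il12b-poor mature DC-like cells at 28403, proliferating cells at 23452, Mmp13-poor macrophage-like cells at 20855 and Il12b-rich mature DC-like cells at 17031. In Clec7a-/- it ran through Il12b-poor mature DC-like cells at 30358, transitional-like cells at 25226, Il12b-rich mature DC-like cells at 23155, proliferating cells at 15372 and Mmp13-poor macrophage-like cells at 14371. So transitional-like cells stood above Il12b-poor mature DC-like cells in WT and below them in Clec7a-/-, and Mmp13-poor macrophage-like cells stood above Il12b-rich mature DC-like cells in WT only. Proliferating cells numbered only 14 in WT and 21 in Clec7a-/-, so their place is less certain. The order also depends on how DC-like cells are divided. A type 2 DC-like cluster at the finer clustering described below held 35875 CPM (35344-36411) in WT, above the Mmp13-rich level given here. In Clec7a-/- it held 38582 (38092-39076), below that level. The unnamed cluster held 11618 and 11631, B or plasma cell-like cells 9641 and 10198 (11 and 21 cells), and monocyte-like cells 5370 (5241-5502) and 4854 (4689-5024). Transitional-like cells thus held 5.70-fold the monocyte-like level in WT and 5.20-fold in Clec7a-/-. The intervals of neighbors overlapped between the Ngp-rich and Ngp-poor neutrophil-like clusters and between epithelial-like and mast cell-like cells, which were lowest at 577 and 334 in WT and 320 and 221 in Clec7a-/-. In WT the Ngp-poor neutrophil-like interval (816-1067) overlapped that of epithelial-like cells (352-891) too. UMI counts of 3′ libraries are not divided by gene length, so each gene is set against itself across classes and not against the other genes.

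**Figure D1:**
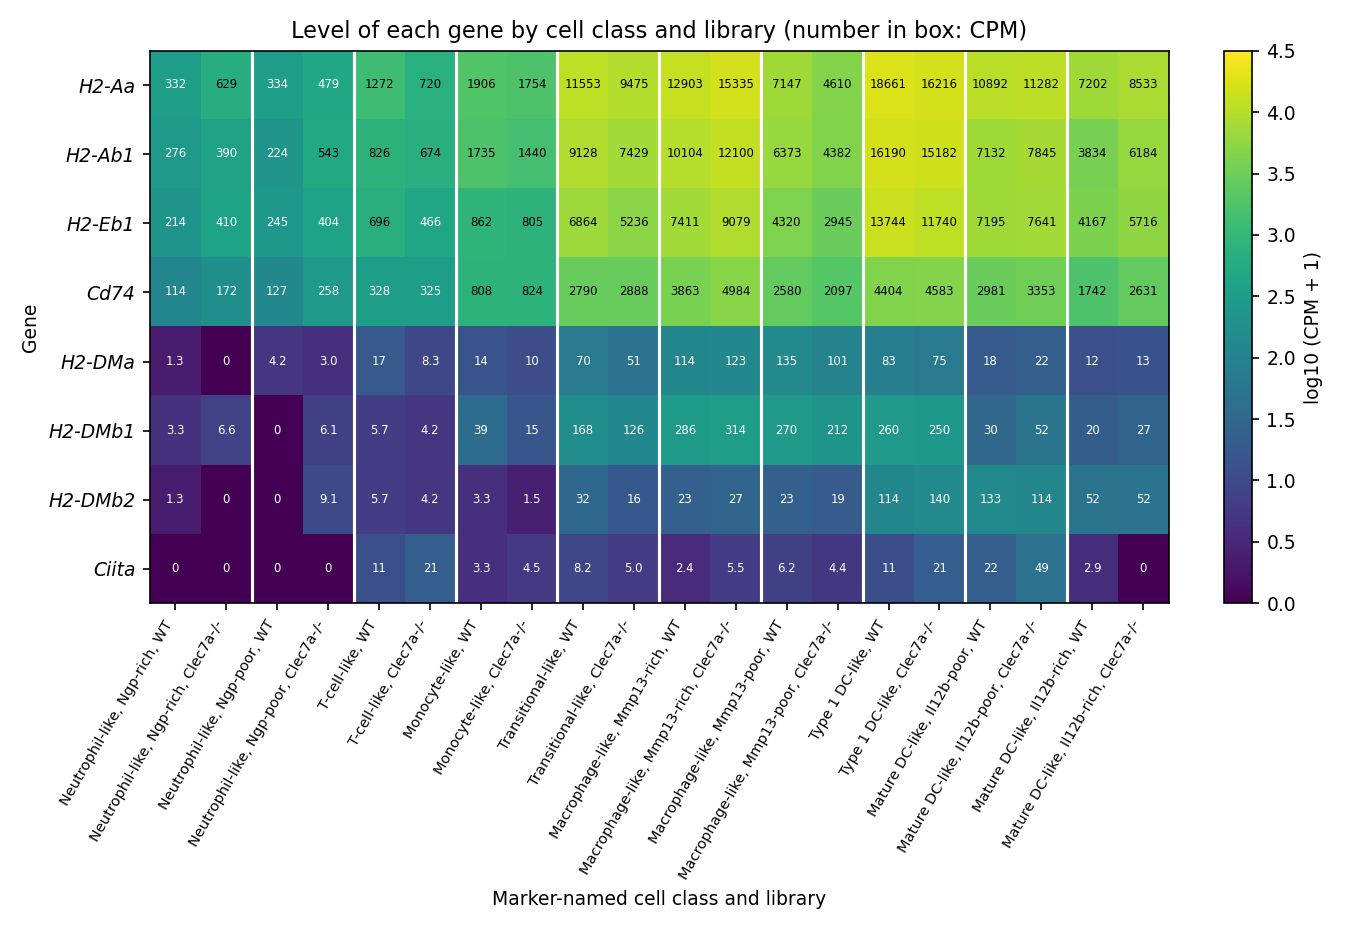
Level of each gene (rows) in each marker-named class and library (columns) in CPM, printed in each box, with color on a scale of log10 of CPM plus 1. H2-Aa, H2-Ab1 and H2-Eb1 are highest in type 1 DC-like cells, at 18661, 16190 and 13744 CPM in WT, whereas Ciita is listed at 0 in both neutrophil-like clusters of both libraries.

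The classes differed in how their cells carried the 8 genes summed. After thinning to 1000 UMIs, each of the 85 WT and 156 Clec7a-/- type 1 DC-like cells held at least 10 UMIs of the 8 genes, with medians of 52 and 47. Monocyte-like cells had a median of 1 in both libraries, as neutrophil-like cells did, and 57.4% and 58.0% of them held any such UMI. Of monocyte-like cells, 18.9% of 380 in WT and 13.9% of 245 in Clec7a-/- held 10 or more, against 0.498% and 0.917% of neutrophil-like cells and 7.02% of 57 and 4.35% of 92 T-cell-like cells. Mmp13-rich macrophage-like cells had medians of 36 and 44, with 86.1% and 90.1% of cells at 10 or more. Mmp13-poor macrophage-like cells were more spread, with medians of 18 and 8 and with 67.6% and 48.1% at 10 or more. Cells with 0 such UMIs made up 8.92% of them in WT and 13.5% in Clec7a-/-, and the 90th percentiles were 45 and 38.4. Transitional-like cells had medians of 32 and 22.5, Il12b-poor mature DC-like cells 27.5 and 27, and Il12b-rich mature DC-like cells 12 and 17. Cells of 1 library are not replicates, and these spreads describe each library alone.

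**Figure D2:**
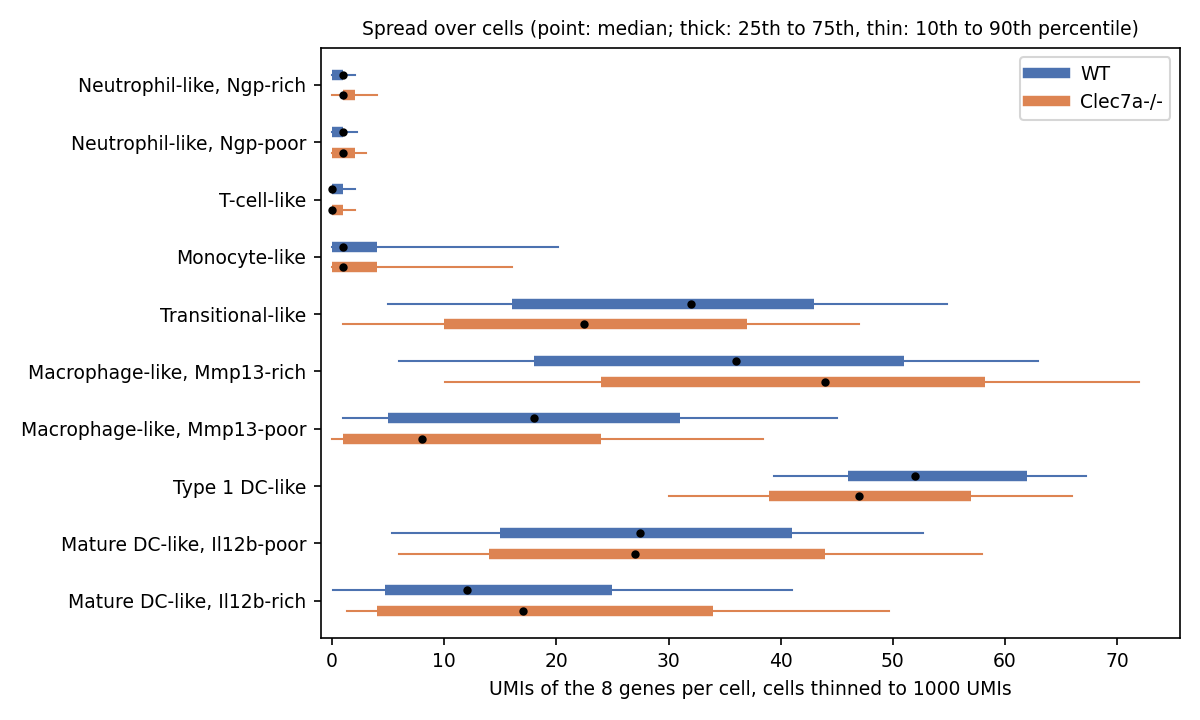
UMIs of the 8 genes per cell after each cell was thinned to 1000 UMIs (x axis), by class and library, with the median as a point, the 25th to 75th percentile as a thick bar and the 10th to 90th as a thin one. Type 1 DC-like cells are clear of the background classes in both libraries, and Mmp13-poor macrophage-like cells fall from a median of 18 in WT to 8 in Clec7a-/-.

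The classes that held class II RNA differed between the libraries. Macrophage-like cells held 47.0% of the UMIs of the 8 genes in WT while making up 19.3% of its cells, and 30.8% in Clec7a-/- while making up 14.7%. The DC-like classes together held 26.0% in WT (13.2% of cells) and 52.8% in Clec7a-/- (28.2% of cells). Type 1 DC-like cells alone went from 13.9% to 27.9% of the UMIs and from 3.15% to 8.10% of the cells. Neutrophil-like cells held 0.669% and 0.424%. Shares of sorted cells in 1 library per genotype carry no error between mice. The H2-DM genes were held unlike the chains. DC-like cells held 56.0% of H2-DMb2 UMIs in WT and 79.7% in Clec7a-/-, but only 11.3% and 33.2% of H2-DMb1 UMIs and 9.61% and 27.6% of H2-DMa UMIs. Macrophage-like cells held 66.2% and 51.0% of H2-DMb1 and 69.4% and 54.6% of H2-DMa. For Ciita, DC-like cells held 42.9% of 63 UMIs in WT and 75.3% of 97 in Clec7a-/-.

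**Figure D3:**
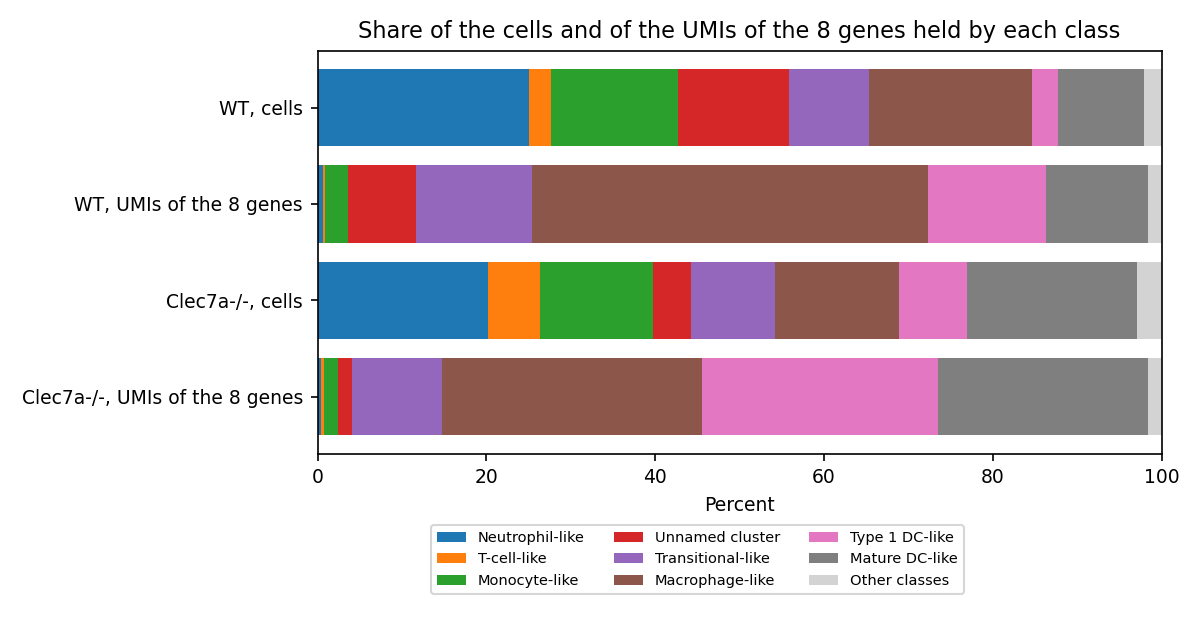
Percent of cells and of the UMIs of the 8 genes (x axis) that each class holds in each library, as stacked bars. Macrophage-like cells hold 47.0% of the UMIs in WT and 30.8% in Clec7a-/-, and the type 1 and mature DC-like classes together hold 26.0% and 52.8%.

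Over all cells kept, the 8 genes were higher in the Clec7a-/- library, at 25084 CPM (24972-25198) against 20054 (19975-20134), a log2 ratio of 0.32 (0.31-0.33). The median log2 ratio of the 8470 genes with at least 100 UMIs was 0.13, and scaling by trimmed mean of M values (TMM) moved all ratios in this comparison by -0.17, which left 0.16 for the sum. Of the 8 genes, H2-DMb2 (log2 0.78, 0.57-0.99) and Ciita (1.32, 0.85-1.80) were past 1.5-fold and higher, beside 10.2% of genes, and 0 were past it and lower, beside 5.70%. Both stayed past 1.5-fold under TMM scaling, where 486 genes were higher and 794 lower in place of 867 and 483. The chains and Cd74 were at 0.28 for H2-Aa, 0.32 for H2-Ab1, 0.37 for H2-Eb1 and 0.41 for Cd74, and H2-DMa and H2-DMb1 were at -0.17 (-0.35 to 0.01) and -0.05 (-0.16 to 0.06). With each cluster weighted by its share of all WT UMIs and taken at its Clec7a-/- level, the sum came to 19646 CPM, a log2 ratio of -0.03 to WT. With the Clec7a-/- shares and the WT levels it came to 25536, a log2 ratio of 0.35. The plain sum alone does not tell a larger share of a class from a higher level within it. Shares of UMIs combine the number of cells and their depth, and the reweighted sums do not separate these. At this clustering, the reweighted sum stayed near the WT sum with WT shares and near the Clec7a-/- sum with Clec7a-/- shares. Why the shares differed was not tested.

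Within the monocyte-like, transitional-like, macrophage-like and DC-like classes the sums moved in both directions and by less than 1.5-fold. They were higher in Clec7a-/- in Mmp13-rich macrophage-like cells, at a log2 ratio of 0.27 (0.26-0.29), in Il12b-poor mature DC-like cells, at 0.10 (0.07-0.12), and in Il12b-rich ones, at 0.44 (0.40-0.49). They were lower in Mmp13-poor macrophage-like cells, at -0.54 (-0.57 to -0.51), in transitional-like cells, at -0.28 (-0.30 to -0.25), in type 1 DC-like cells, at -0.15 (-0.17 to -0.13), and in monocyte-like cells, at -0.15 (-0.21 to -0.08). The signs for transitional-like, monocyte-like and Il12b-poor mature DC-like cells did not hold under every way of drawing classes, averaging or subtracting background. Transitional-like cells came to 0.22 when each cell took the class of its highest marker score, and monocyte-like cells to 0.25 when the T-cell-like level of the same library was subtracted. As a mean over cells, Il12b-poor mature DC-like cells came to -0.0042. Since Mmp13-rich and Mmp13-poor macrophage-like cells went opposite ways, the whole macrophage-like class was at 0.09 (0.07-0.10). The ratio of Mmp13-rich over Mmp13-poor cells was 1.66-fold in WT and 2.92-fold in Clec7a-/-.

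**Figure D4:**
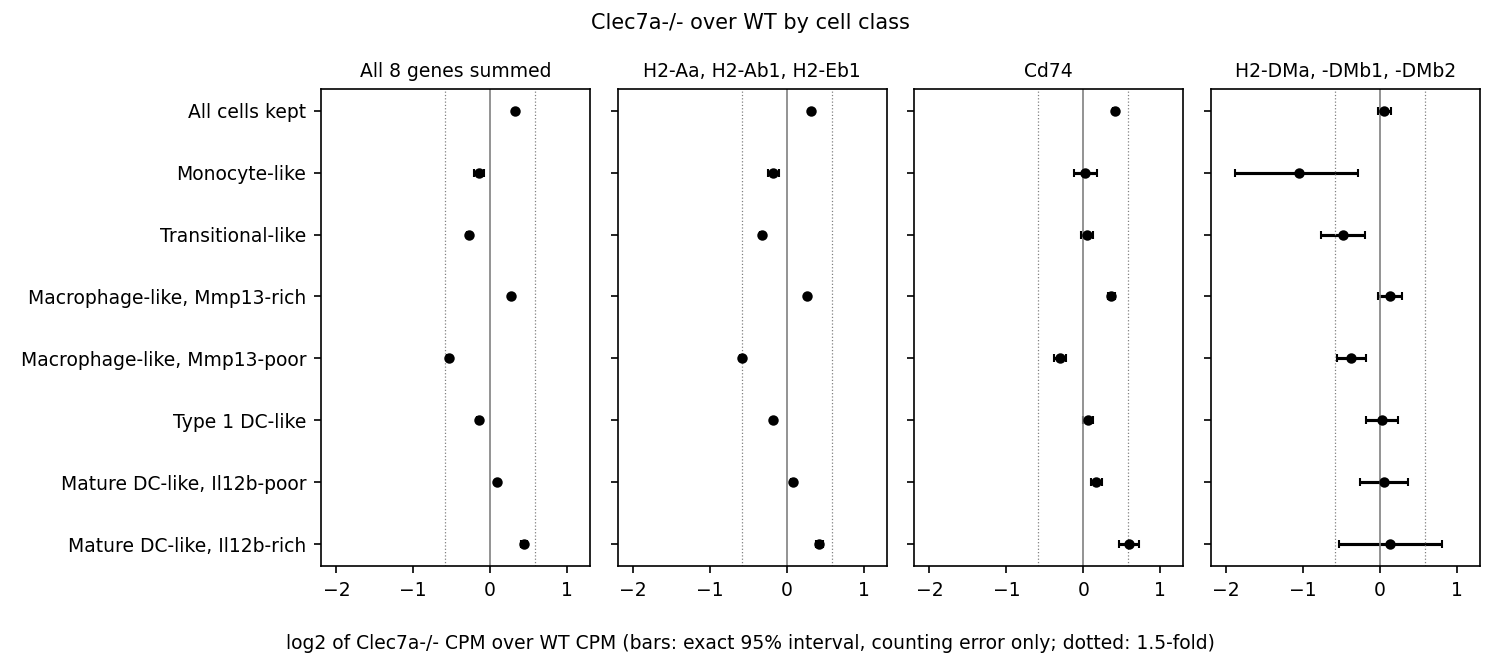
log2 of the Clec7a-/- over the WT level (x axis) by class for all 8 genes summed, the 3 chains, Cd74 and the 3 H2-DM genes, with exact 95% intervals for counting error as bars and 1.5-fold as dotted lines. The sums of the 8 genes stay within 1.5-fold in each row, from -0.54 in Mmp13-poor macrophage-like cells to 0.44 in Il12b-rich mature DC-like cells.

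Among single genes with at least 100 UMIs in a class, few passed 1.5-fold there. In Mmp13-poor macrophage-like cells, H2-Aa was lower in Clec7a-/-, at 4610 CPM (4471-4752) against 7147 (7033-7262), a log2 ratio of -0.63 (-0.68 to -0.58). It was the 1 of 6 genes with at least 100 UMIs there, beside 3.95% of all such genes lower and 2.10% higher, and the median of the 6 was -0.48 against -0.01 for all 3900 genes. H2-Ab1, at -0.54, and H2-Eb1, at -0.55, were near the limit without passing it. In 10 alternatives H2-Aa came to -0.74 to -0.23 there, so it did not stay past 1.5-fold in all of them. In Il12b-rich mature DC-like cells, H2-Ab1 was higher, at 6184 CPM against 3834 (log2 0.69, 0.60-0.78), and so was Cd74, at 2631 against 1742 (0.60, 0.46-0.73). These were 2 of 4 genes, beside 5.23% of genes higher and 5.51% lower. The Il12b clusters could be drawn in 8 alternatives, with H2-Ab1 at 0.41 to 1.21 there and Cd74 at 0.45 to 0.74. The low ends lie under 1.5-fold. In Mmp13-rich macrophage-like cells 0 of 6 passed in either direction, beside 2.30% higher and 4.18% lower. The same was so for 0 of 7 in type 1 DC-like cells (6.66% and 4.73%), 0 of 5 in Il12b-poor mature DC-like cells (2.80% and 3.35%), 0 of 6 in transitional-like cells (4.07% and 4.0%) and 0 of 4 in monocyte-like cells (3.28% and 4.29%). Counts against all genes shifted with TMM scaling in type 1 DC-like cells, where 169 higher and 120 lower became 118 and 160, in transitional-like cells, where 118 and 116 became 79 and 162, and in monocyte-like cells, where 91 and 119 became 68 and 149. The members past 1.5-fold in these classes were the same under both scalings at the minimum of 100 UMIs. With a minimum of 20 UMIs, H2-DMb1 and Ciita passed as higher in Il12b-poor mature DC-like cells, 2 of 8, beside 9.1% of genes. Ciita passed as higher in type 1 DC-like cells, 1 of 8, beside 15.8%. H2-DMb1 passed as lower in monocyte-like cells, 1 of 6, beside 9.99%, and H2-DMb2 in transitional-like cells, 1 of 7, beside 7.82%.

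In Ngp-poor neutrophil-like cells, a background class, H2-Ab1, H2-Eb1 and Cd74 were past 1.5-fold and higher in Clec7a-/-, 3 of 4 genes, and 0 were lower. The all-gene share past 1.5-fold was large in these shallow cells, at 23.3% higher and 23.3% lower. TMM scaling moved ratios there by 0.52, so that 429 genes were higher and 83 lower in place of 221 and 221, and H2-Aa passed as well. The levels stayed low, since H2-Ab1 went from 224 CPM (168.0-293) to 543 (466.5-629) and Cd74 from 127 (85.6-181) to 258 (206-319).

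Cd74, the invariant chain, did not keep the same proportion to the chains. Among the UMIs of Cd74 and the 3 chains, Cd74 made up 8.31% (8.02-8.61) in WT and 9.60% (9.35-9.86) in Clec7a-/- type 1 DC-like cells. In transitional-like cells it made up 9.20% (8.89-9.51) and 11.5% (11.1-12.0), and in Mmp13-poor macrophage-like cells 12.6% (12.32-12.95) and 14.9% (14.3-15.6). Mmp13-rich macrophage-like cells had 11.3% (11.0-11.5) and 12.0% (11.7-12.3), and monocyte-like cells, with the largest share, 15.2% (14.4-16.1) and 17.1% (15.8-18.4). The Cd74 proportion was the larger in Clec7a-/- in each of these classes, with overlapping intervals in monocyte-like cells. The log2 ratio of Cd74 between libraries was 0.06 (-0.01 to 0.12) in type 1 DC-like cells against -0.17 (-0.19 to -0.15) for the chains summed, and 0.05 (-0.03 to 0.13) in transitional-like cells against -0.32 (-0.34 to -0.29). In Mmp13-poor macrophage-like cells Cd74 was lower as well, at -0.30 (-0.37 to -0.22) against -0.58 (-0.61 to -0.55). The neutrophil-like background had 12.4% (10.8-14.1) and 13.9% (11.6-16.5), which overlap.

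The 3 chains also differed in proportion between classes. H2-Eb1 made up 19.5% (18.6-20.3) of chain UMIs in monocyte-like cells over both libraries, 24.5% (24.3-24.7) in macrophage-like cells, 27.6% (27.3-28.0) in type 1 DC-like and 28.3% (28.0-28.7) in mature DC-like cells. Among these, H2-Ab1 was largest in monocyte-like cells, at 37.7% (36.7-38.8), and smallest in mature DC-like cells, at 28.9% (28.5-29.2). Macrophage-like and type 1 DC-like cells had 34.1% and 34.5% of it, so it did not mirror the H2-Eb1 order between these classes. The monocyte-like share of H2-Eb1 was below that of the neutrophil-like background, at 27.2% (25.4-29.2), and of T-cell-like cells, at 24.97% (22.2-27.9). By library, H2-Eb1 was at 19.1% in WT and 20.1% in Clec7a-/- monocyte-like cells and at 28.3% and 28.4% in mature DC-like cells.

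H2-DM, the peptide editor, divided macrophage-like from mature DC-like cells. H2-DMb1, 1 of its 2 β chain genes, stood at 278 CPM (262-295) in WT and 268 (245-291) in Clec7a-/- macrophage-like cells and at 260 (222-302) and 250.3 (222-282) in type 1 DC-like cells. In mature DC-like cells it stood at 26.8 (18.3-37.9) and 41.9 (32.8-52.8), 9.68-fold and 5.97-fold below type 1 DC-like cells. H2-DMa, the α chain gene, had the same order, with 124 (114-136) and 113 (98.4-128) in macrophage-like, 82.9 (62.1-108) and 74.6 (59.4-92.7) in type 1 DC-like and 15.9 (9.59-24.9) and 18.1 (12.3-25.6) in mature DC-like cells. H2-DMb2, the other β chain gene, was ordered otherwise. It was at 110 (91.8-130.3) and 88.5 (75.01-104) in mature DC-like cells, at 114 (89.5-144) and 140.2 (119-164) in type 1 DC-like cells, and only at 22.7 (18.4-27.8) and 23.1 (16.9-30.9) in macrophage-like cells. The 2 DC-like classes did not differ in H2-DMb2 beyond counting error in WT, at a log2 ratio of type 1 over mature of 0.06 (-0.38 to 0.48), and did in Clec7a-/-, at 0.66 (0.33-1.00).

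H2-DMb2 made up 73.1% (68.4-77.5) of the H2-DMb1 and H2-DMb2 UMIs in mature DC-like cells over both libraries, 34.0% (30.4-37.7) in type 1 DC-like, 14.4% (10.8-18.6) in transitional-like and 7.68% (6.506-8.999) in macrophage-like cells. The 2 macrophage-like clusters were alike at 7.55% and 7.85%, although they differed in Mmp13. Between libraries the share in mature DC-like cells was 80.4% (73.4-86.2) in WT and 67.9% (61.3-73.9) in Clec7a-/-, with intervals that overlap narrowly. The finer clustering described below divided the Il12b-poor part of this class. There the share was 88.9% in both libraries in the mature DC-like cluster. In the type 2 DC-like cluster it was 78.5% (68.8-86.3) in WT and 64.3% (55.9-72.2) in Clec7a-/-, with intervals that overlap. The H2-DM genes together made up 2.42% (2.29-2.56) of H2-DM and chain UMIs in Mmp13-poor macrophage-like cells, 1.32% (1.26-1.40) in Mmp13-rich ones, 1.01% (0.945-1.09) in type 1 DC-like and 0.637% (0.579-0.699) in mature DC-like cells. The X run printed above was found in the window of both β chain genes, whose levels ran in different orders over the classes.

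The summed log2 ratio of the H2-DM genes between libraries was 0.13 (-0.03 to 0.29) in Mmp13-rich macrophage-like cells and 0.03 (-0.18 to 0.24) in type 1 DC-like cells, intervals that hold 0. It was -0.37 (-0.56 to -0.18) in Mmp13-poor macrophage-like cells, -0.47 (-0.76 to -0.19) in transitional-like cells and -1.05 (-1.89 to -0.29) in monocyte-like cells, the last from 18 and 68 UMIs. In mature DC-like cells H2-DMb1 was at 0.64 (0.02-1.29) from 32 and 72 UMIs, and this value turned negative in 4 of 13 alternatives, down to -0.88.

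Ciita was sparse, with 63 UMIs in the 2696 WT cells and 97 in the 1999 Clec7a-/- cells, and it was not at its highest where the chains were. It reached 22.4 CPM (13.5-35.0, 19 UMIs) in WT and 49.1 (36.4-64.7, 50 UMIs) in Clec7a-/- Il12b-poor mature DC-like cells, a log2 ratio of 1.13 (0.34-1.98). In type 1 DC-like cells it was at 10.9 (4.401-22.6, 7 UMIs) and 20.9 (13.3-31.4, 23 UMIs), a ratio of 0.94 (-0.33 to 2.40) that counting error does not separate from 0. Both ratios are to be read beside the shares of all genes given above for a minimum of 20 UMIs. Macrophage-like cells held 4.31 (2.55-6.81, 18 UMIs) and 5.03 (2.41-9.25, 10 UMIs), and transitional-like cells 8.15 (9 UMIs) and 5.00 (4 UMIs). In Il12b-rich mature DC-like cells there were 1 and 0 UMIs, where a count of 0 allows up to 4.29 CPM (3 UMIs). Neutrophil-like cells had 0 in both, which allows up to 1.71 CPM in WT and 6.24 in Clec7a-/-, and the 11 and 21 B or plasma cell-like cells had 0 as well, which allows up to 74.3 and 64.3. T-cell-like cells had 2 and 5 UMIs, at 11.3 (1.37-40.9) and 20.8 (6.76-48.6) CPM, so their intervals overlap those of the DC-like classes. In Clec7a-/- the interval of Il12b-poor mature DC-like cells lay above those of type 1 DC-like, macrophage-like, transitional-like and monocyte-like cells. In WT it lay above those of macrophage-like and monocyte-like cells and overlapped the others.

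Relative to the chain UMIs of the same cells, Ciita had 8.89 UMIs per 10000 chain UMIs in WT and 18.3 in Clec7a-/- Il12b-poor mature DC-like cells. Type 1 DC-like cells had 2.25 and 4.85 and macrophage-like cells 1.79 and 1.99. Monocyte-like cells had 7.29 and 11.2, from 4 and 3 Ciita UMIs, and T-cell-like cells 40.5 and 112, from 2 and 5. After thinning to 1000 UMIs, Ciita was found in 3.25% (1.41-6.31) and 2.67% (1.29-4.85) of mature DC-like cells, in 0.607% and 0.725% of macrophage-like cells and in 0 of 603 and 0 of 218 neutrophil-like cells, which allows up to 0.498% and 1.38%. After thinning to 2000 UMIs the mature DC-like shares were 3.94% (1.72-7.62) and 5.06% (2.92-8.09), and without thinning 6.99% and 7.48%. The intervals overlap at each depth, and no order is read from these shares. The plots of H2-DMb1, H2-DMb2 and Ciita by class show the orders side by side.

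**Figure D5:**
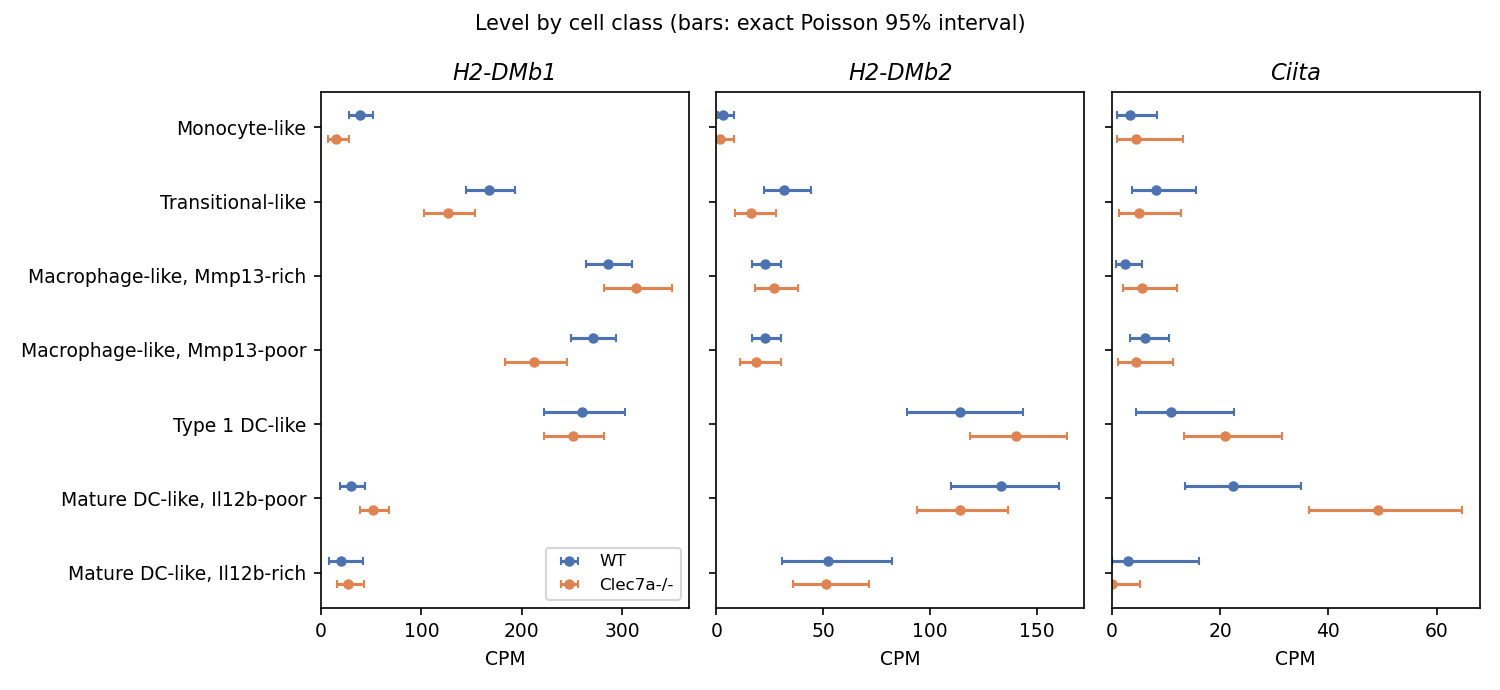
CPM of H2-DMb1, H2-DMb2 and Ciita (x axes) by class in WT and Clec7a-/- cells, with exact Poisson 95% intervals as bars. H2-DMb1 is at 286 and 314 CPM in Mmp13-rich macrophage-like cells and at 29.5 and 52.0 in Il12b-poor mature DC-like cells, and H2-DMb2 is at 22.7 and 26.8 in the former and 133 and 114 in the latter. Among the classes plotted, Ciita is highest in Il12b-poor mature DC-like cells, 302 of which fell in a type 2 DC-like cluster at a finer clustering.

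The Il12b-poor mature DC-like cluster held type 2 DC markers, summed at 372 and 512 CPM. They were also at 339 and 351 in the Il12b-rich cluster and 320 and 419 in Mmp13-rich macrophage-like cells. A finer clustering, at a resolution higher by 0.4, divided the Il12b-poor cluster. One of the resulting clusters carried 5 of 6 type 2 DC markers (135 WT and 171 Clec7a-/- cells) and the other 7 of 8 mature DC markers (85 and 119 cells). The first took 302 cells from the Il12b-poor cluster and the second 204. No type 2 DC marker was among the 10 leading genes of the first, so its type 2 DC-like name is less certain. Ciita was at 24.7 CPM (12.7-43.1, 12 UMIs) in WT and 68.3 (49.2-92.3, 42 UMIs) in Clec7a-/- type 2 DC-like cells, a log2 ratio of 1.47 (0.52-2.53). In the mature DC-like cluster it was at 16.6 (6.11-36.2) and 19.2 (8.27-37.8), a ratio of 0.20 (-1.51 to 2.01), with an interval that overlaps that of the type 2 DC-like cells. The 8 genes summed to 35875 and 38582 CPM in type 2 DC-like cells and to 18390 and 18407 in mature DC-like cells, log2 ratios of 0.10 (0.08-0.13) and 0.00 (-0.05 to 0.05). H2-DMb1 went from 41.1 to 82.9 CPM in type 2 DC-like cells (1.01, 0.24-1.84), where H2-DMb2 was at 150.1 and 149.6. In the mature DC-like cluster H2-DMb2 was at 111 and 57.5 (-0.95, -1.74 to -0.18). Over both libraries it made up 88.9% (79.3-95.1) of the β chain UMIs there, against 69.9% (63.6-75.7) in type 2 DC-like cells.

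Other genes of the pathway were read from lists chosen with earlier results of these data known. Over all cells, H2-Oa and H2-Ob, which encode the H2-DM inhibitor H2-DO, were both past 1.5-fold and higher in Clec7a-/-, at log2 ratios of 0.78 and 0.77, beside 10.2% of all genes higher and 5.70% lower. Of the 7 factors known to act on Ciita, Irf8 (0.83), Irf4 (0.81) and Ifngr1 (0.76) were past it and higher and 0 were lower. Of 6 promoter factors with enough UMIs, Nfya was lower (-0.62) and 0 were higher. Of the 5 processing genes, Ctss, Ctsl, Ctsb, Lgmn and Ifi30, 0 were past it in either direction, and Cd83, which keeps class II at the surface, was higher (0.93). No reweighted sum was made for these genes, so a larger share of a class and a higher level within it cannot be told apart in them. Within classes the same lists gave at most 1 gene each, to be read beside the shares of all genes given above for each class. Lgmn, the asparagine endopeptidase, was past 1.5-fold and higher in type 1 DC-like cells (0.76) and monocyte-like cells (0.64), where Ifngr2 was higher as well (0.62). Spi1 was higher in Mmp13-rich macrophage-like cells (0.59, at the limit of 1.5-fold), Cd83 was lower in Mmp13-poor ones (-0.66), and Ctsb was lower in Ngp-poor neutrophil-like cells (-0.86), where 23.3% of all genes were. The TMM shifts of -0.05 in monocyte-like and -0.02 in Mmp13-rich cells would take Ifngr2 and Spi1 under the limit. The lists gave 0 such genes in transitional-like cells and in both mature DC-like clusters.

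All 5 processing genes were at higher CPM in Mmp13-rich macrophage-like than in type 1 DC-like cells, by very different amounts. Ctsl, which cuts Cd74 in some presenting cells, was at 2027 CPM in WT against 32.8, Ctsb at 6129 against 342.5, and Ctss, which cuts Cd74 in myeloid cells, at 6175 against 841. Lgmn was at 877 against 57.9. Ifi30 was nearest in level, at 1527 against 754 in WT and 1622 against 977 in Clec7a-/-. H2-Ob was at 114 CPM in WT and 93.8 in Clec7a-/- type 1 DC-like cells and at 9.19 and 10.2 in Mmp13-rich macrophage-like cells. H2-Oa stood at 25.02 and 24.6 against 1.94 and 0.923. The H2-DM genes themselves summed to 456.6 and 465 CPM in type 1 DC-like and 425 and 403 in macrophage-like cells.

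Across the 14 sums of a named class in a library with at least 30 cells, genes among the 10 closest to the sum of the 8 in Pearson correlation of levels, out of 8462 genes, were Cd86 (0.96), Trap1 (0.95), Tmem50b (0.95), Rsu1 (0.94), Nhp2 (0.94), Gsto1 (0.94), Prcp (0.93), Rtn4 (0.93) and Cfl1 (0.93). Cd86 encodes a costimulatory ligand of presenting cells. Of the listed pathway genes, Ifi30 (0.89), the thiol reductase of antigen processing, and Irf8 (0.87) came closest. Ciita itself was at 0.58, H2-DMb2 at 0.87, H2-DMa at 0.89 and H2-DMb1 at 0.92, whereas Irf1 was at -0.48. The 14 points share 2 libraries and 7 classes that differ in depth, so these values describe the ranking alone.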

How the data were processed

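The deposited values were raw UMI counts, whole numbers for each gene in each barcode. The methods name the SeekOne MM 3′ kit, the labels another platform, and the submitters' processing notes Cell Ranger 2.1.1 and mm10, with no role given. Barcodes were kept if they had between 200 and 4000 genes and no more than 5% of UMIs from mitochondrial genes, the limits of the study. Clustering used R 4.3.3 and Seurat 5.3.0 (LogNormalize to 10000, 2000 variable features without the 8 genes, the pathway lists, other H2 genes and sex-linked genes, 20 components, the smallest resolution that gave 15 clusters, 0.8). Scrublet in scanpy 1.11.5 called 0 and 2 doublets, which is too few to have worked, so none were removed. UMIs were summed per class and library in Python 3.11.15 (scipy 1.17.1, numpy 2.4.6, pandas 2.3.3), and CPM, exact Poisson and Clopper-Pearson intervals and exact conditional intervals of ratios were computed. The count past 1.5-fold used genes with at least 100 UMIs, with 0.5 UMI added to each count. With 1 library per genotype no count model was fitted, and edgeR 4.0.16 served for TMM factors alone. GENCODE M21 held 32235 of the feature identifiers, including all 8. The genes named are the 8, those of the pathway lists and the 10 with the highest correlation, of which 1 is not reported here. The interval code was tested on simulated data. The genes, lists and markers were chosen with earlier results of these data known. Figures were drawn with matplotlib 3.10.9.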

Additional observations from a re-analysis of the deposited data

Results flagged for a closer look

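The 2 macrophage-like clusters moved in opposite directions between libraries. The log2 ratio of Clec7a-/- over WT for the 8 genes summed was 0.27 in Mmp13-rich and -0.54 in Mmp13-poor macrophage-like cells, and each kept its sign in the 11 alternatives in which both clusters could be drawn, at 0.25 to 0.46 and -0.67 to -0.18. Among these, TMM scaling, the mean over cells and both background subtractions kept the same cells. Redrawn clusters could differ in size, with 134 and 82 Mmp13-rich and 403 and 267 Mmp13-poor cells at 10% mitochondrial UMIs, against 308 and 190 and 213 and 104. The difference between the clusters was not tested, because each genotype had 1 library. The summed macrophage markers were higher in Clec7a-/- in both, at 15313 and 21476 CPM in the Mmp13-rich and 15953 and 21540 in the Mmp13-poor cluster, with 0 of 10 markers at 0. The markers did not move alike over the whole macrophage-like class. Apoe went from 5069 CPM in WT to 8885 in Clec7a-/-, and C1qa from 685 to 694. Of the 10, only Mrc1 (177 and 159) and Trem2 (237 and 233) were lower in Clec7a-/-.

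Barcodes that failed the limits on detected genes and mitochondrial UMIs still held class II RNA. In the 771 WT barcodes left out, the 8 genes summed to 22397 CPM (22242-22552), and in the 1081 Clec7a-/- barcodes to 28289 (28129-28449), far above the 3161 and 2223 CPM of the T-cell-like cells kept. These barcodes enter none of the comparisons above.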

How the results depend on the processing

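No paired analysis was possible because each genotype had 1 library, and for the same reason no replicate could be left out. Of the summed log2 ratios of Clec7a-/- over WT, those over all cells (0.16 to 0.44), macrophage-like (0.01 to 0.15) and mature DC-like cells (0.01 to 0.28) were higher and that of type 1 DC-like cells (-0.23 to -0.01) lower in 15 of 15 alternatives, and monocyte-like and transitional-like cells were lower in 14 of 15. The cause of the changes below was not tested. Values are given in the order in which the classes are named.

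With 10% mitochondrial UMIs, all, monocyte-like, transitional-like, macrophage-like, Mmp13-rich, Mmp13-poor, type 1 DC-like and mature DC-like cells came to 0.36, -0.21, -0.12, 0.071, 0.39, -0.18, -0.085 and 0.17. With 500 to 6000 genes, all, macrophage-like, Mmp13-rich, Mmp13-poor, type 1 DC-like and mature DC-like cells came to 0.34, 0.14, 0.37, -0.49, -0.11 and 0.26. Without the Scrublet calls, monocyte-like and Mmp13-poor cells came to -0.054 and -0.62. That setting kept 2696 and 1998 cells in place of 2696 and 1999, with the clusters drawn anew. With all variable features, monocyte-like, transitional-like, Mmp13-poor and mature DC-like cells came to -0.45, -0.15, -0.61 and 0.25. At a resolution lower by 0.2, transitional-like, macrophage-like, type 1 DC-like and mature DC-like cells came to -0.20, 0.10, -0.083 and 0.10, and at one higher by 0.4 the last 2 came to -0.10 and 0.27. With 10 components, monocyte-like, transitional-like, macrophage-like, Mmp13-rich, Mmp13-poor and mature DC-like cells came to -0.46, -0.15, 0.022, 0.46, -0.42 and 0.27, and with 30 components the first 3 came to -0.22, -0.17 and 0.11. With classes from marker scores, monocyte-like, transitional-like, macrophage-like, type 1 DC-like and mature DC-like cells came to -0.57, 0.22, 0.0081, -0.0050 and 0.15.

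With TMM scaling, all, transitional-like, Mmp13-rich and type 1 DC-like cells came to 0.16, -0.37, 0.26 and -0.23. As a mean over cells, all, monocyte-like, macrophage-like, Mmp13-rich, Mmp13-poor, mature DC-like and Il12b-poor cells came to 0.24, -0.27, 0.15, 0.25, -0.44, 0.0054 and -0.0042. With the neutrophil-like level subtracted, all, monocyte-like, transitional-like, macrophage-like, Mmp13-rich, Mmp13-poor, type 1 DC-like and mature DC-like cells came to 0.29, -0.48, -0.33, 0.051, 0.26, -0.65, -0.17 and 0.092. With the T-cell-like level subtracted, all, monocyte-like, macrophage-like, Mmp13-rich, type 1 DC-like and mature DC-like cells came to 0.44, 0.25, 0.15, 0.33, -0.13 and 0.20. Alternatives chosen after seeing the data removed the top 5% of Scrublet scores, where monocyte-like, macrophage-like, Mmp13-poor and mature DC-like cells came to -0.071, 0.035, -0.67 and 0.28, or the mitochondrial limit, where all, transitional-like, type 1 DC-like and mature DC-like cells came to 0.36, -0.14, -0.081 and 0.17.

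Macrophage-like cells held 35.3% of the UMIs in WT and 22.1% in Clec7a-/- with 10% mitochondrial UMIs, 46.1% and 32.7% with 500 to 6000 genes, 32.7% and 19.8% with 10 components, 37.5% and 24.8% with 30, 42.1% and 29.3% with marker scores and 47.5% in WT with all variable features. DC-like cells held 29.03% and 51.5%, 16.3% and 31.1%, 19.0% and 40.6%, 26.4% and 53.7%, and 24.0% and 42.4% under the first 5 of these, and 24.5% and 45.8% at the higher resolution. H2-DMb1 in mature DC-like cells turned to -0.88 with 10% mitochondrial UMIs, -0.58 with 500 to 6000 genes, -0.59 with 10 components and -0.58 with marker scores. Cells with a UMI of any of the 8 genes were 86.6% and 92.4% after thinning to 2000 UMIs and 88.5% and 87.2% without thinning, against 75.1% and 82.7%. Genes past the fold over all cells were 1800 higher and 775 lower with a minimum of 20 UMIs, 205 and 145 at 2-fold, and 486 and 794 with TMM scaling, the last also chosen after seeing the data. The Mmp13 clusters could not be drawn at the lower resolution, with 30 components, without the mitochondrial limit or with marker scores. The Il12b clusters could not be drawn with 10% mitochondrial UMIs, 500 to 6000 genes, all variable features or marker scores. Nor could they at the lower resolution, without the mitochondrial limit or without the top 5% of Scrublet scores. In the 8 alternatives that had them, the Il12b-rich sum was at 0.28 to 0.72. The depth limits Ciita most, with 63 and 97 UMIs in all.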

Other observations

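The 4 smallest classes were too thin for a comparison between libraries but add to the picture of which cells carry the genes. B or plasma cell-like cells held H2-DMb2 at 49.6 CPM in WT and 129 in Clec7a-/-, from 2 and 6 UMIs, and Cd74 at 1140 and 1821. Proliferating cells held 279 and 233 CPM of H2-DMb1, from 42 and 40 UMIs, a level near that of the macrophage-like class. Epithelial-like and mast cell-like cells held 20 and 27 UMIs of the 8 genes in WT and 16 and 5 in Clec7a-/-, and Ciita was at 0 in both classes.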
